A study of Mus musculus with 12 samples.

Results

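The genes described here encode the proteins of the mitochondrial ribosome, chosen as every gene whose symbol begins with Mrpl or Mrps and whose mean over the 6 distinct libraries of the series was at least 1 TPM. TPM, a length-corrected abundance, gives the part of a library's transcripts that a gene makes up once transcript length is taken into account. There were 78 such genes among the 21936 genes listed in the series. The threshold removed none of the genes with these prefixes, since the lowest mean was 4.23 TPM (Mrpl19), and all 78 stood at 1 TPM or more in every library. The count includes Mrps36, whose protein keeps the name of a ribosomal protein but is a component of the 2-oxoglutarate dehydrogenase complex. Of the other 77, 51 encode proteins of the large subunit, among them Mrps18a and Mrps30 despite their names, and 26 encode proteins of the small subunit.

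The study compared polyadenylated RNA of skeletal muscle from wild-type mice with that of mice lacking PTRF, the caveolar coat protein now called cavin 1, all C57BL/6N and 3 months old. The labels name 12 samples, 3 for each genotype in soleus and in quadriceps, and mark the knockout samples as dystrophic. Each quadriceps sample repeats the values of a soleus sample, which leaves 3 wild-type and 3 knockout libraries of a muscle that cannot be assigned, and 1 comparison. No allele, promoter or Cre line is named in the labels.

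Mitochondria keep a small genome that encodes a few subunits of the respiratory chain, and these are made on a ribosome of their own inside the organelle. Its RNA comes from the mitochondrial genome, whereas its proteins are all encoded in the nucleus, made in the cytosol and imported. Some of these proteins have counterparts in bacterial ribosomes and others are found only in mitochondria. Skeletal muscle, above all its oxidative fibres, is rich in mitochondria.

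The targeted gene, Cavin1, had 45.2, 40.0 and 42.2 TPM in the wild-type libraries (in the order 1, 2 and 3, kept throughout) and 0.284, 0.0905 and 0.0254 TPM in the knockouts, as the genotype labels say. Transcripts of the mitochondrial genome took 43.0 to 52.3% of all TPM in wild type and 39.0 to 45.7% in knockout, so the room left for nuclear transcripts differed between libraries. Across the 11056 genes tested on log2(TPM + 1) with limma, 36.3% passed an adjusted p of 0.05 with higher and 2.92% with lower values in knockout, and the median log2 fold change was 0.33. A member at an unchanged TPM therefore lay below most other genes, and each result is given on the deposited scale and relative to all genes. Sequencing depth is unknown. Nothing in the labels ties the numbered samples to separate animals, and the p-values thus reflect the spread among these libraries alone, technical or biological.

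On the deposited scale the mitoribosomal protein genes stayed near their wild-type level, whereas the median fold change of all genes tested was above 0. Mrpl17 and Mrpl23 were higher in knockout (2 of 78, where 36.3% of all genes tested passed in this direction), Mrpl45, Mrpl46 and Mrpl18 were lower (3 of 78, against 2.92%), and 73 did not pass the test. The median log2 fold change of the 78 was -0.04, with quartiles of -0.20 and 0.12, against 0.33 for all genes tested, with quartiles of 0.12 and 0.56. The signs were mixed around 0, with 43 members below and 35 above it. Against the median of all genes the members lay almost all on one side: 73 of 78 (93.6%) were below it. The member median stood at the 13.8th percentile of all genes tested, 0.36 below their median on the log2 scale.

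The position of the members among all genes can also be read library by library, from the same values. The median of log2(TPM + 1) over the members exceeded that over all genes tested by 2.19, 2.20 and 2.41 in wild type and by 1.85, 1.95 and 1.83 in knockout. Every wild-type library was above every knockout library on this measure, and wild-type library 3 was the highest.

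**Figure D1:**
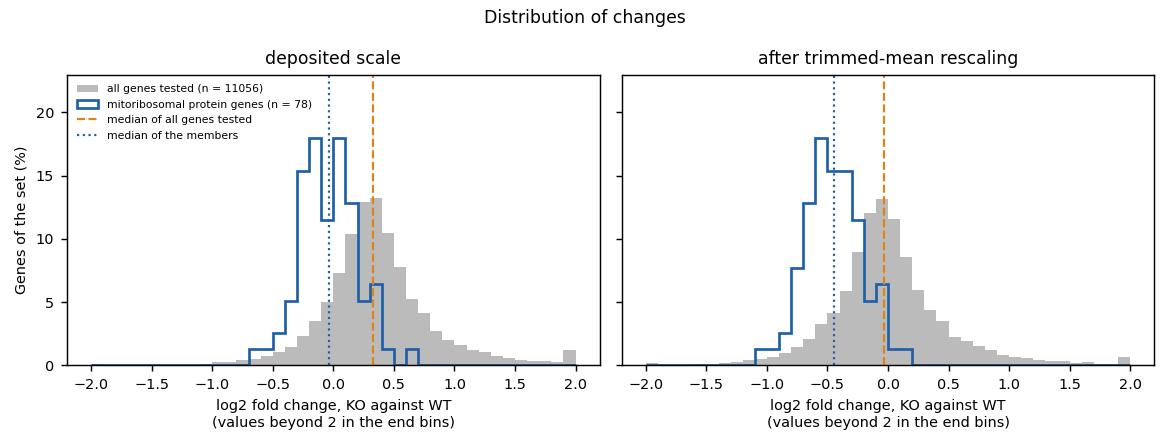
Distribution of log2 fold changes (horizontal; knockout against wild type on log2(TPM + 1)) as percent of each set of genes (vertical), for the 78 mitoribosomal protein genes and for all genes tested, on the deposited scale and after trimmed-mean rescaling; vertical lines mark the medians. On the deposited scale the member median is -0.04 and that of all genes 0.33, and after rescaling they are -0.45 and -0.04.

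The libraries were then put on a scale on which the trimmed mean of log ratios over all genes is equal, a rescaling that asks how a gene moved relative to the bulk of the others. On that scale 56 of the 78 members were lower in knockout and none was higher, against 15.1% lower and 13.6% higher among all 10977 genes tested. The member median was -0.45 and that of all genes -0.04. The 56 comprised the 3 genes that were lower on the deposited scale and 53 that had not passed there. Mrpl17 and Mrpl23 no longer passed. Without wild-type library 3 the rescaled count was 37, and without knockout library 3 it was 35. Quantile normalization left 35 members lower and none higher (background 13.1% lower and 12.4% higher), and a fixed total over nuclear genes alone left 25 lower and 1 higher (background 6.89% and 23.9%). Centring each library on its median left 55 lower and none higher (background 15.7% and 11.4%). The number of members called lower thus depended on the scale, from 3 to 56, while the member median was below that of all genes on each of these scales.

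Ranges over the libraries gave the same order. On the deposited scale the 3 knockout values were all below the 3 wild-type values for 15 members and all above them for 5, and they overlapped for 58. Among all genes tested the corresponding shares were 4.83% below and 48.7% above. After rescaling the knockout values were all below the wild-type values for 65 members, above them for none, and overlapped for 13, against 24.6% below and 19.6% above among all genes.

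The members were expressed at a higher level than most genes, with a median of the mean TPM of 35.3 against 7.78. The counts were therefore also set against genes with a mean of at least 10 TPM, a floor that does not match their levels. Of the 4729 genes with a mean of at least 10 TPM, 24.4% were lower after rescaling. Of the 75 members at that level, 54 were lower. Within genotypes the members had a median coefficient of variation of 12.8%, against 15.2% for all genes tested, a comparison not matched for level.

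Summed over the 78 genes, the wild-type libraries held 3431, 3380.0 and 4327 TPM and the knockout libraries 3779, 3434 and 3482 TPM. The genotypes overlapped, and wild-type library 3 stood apart at the top. The means were 3713 ± 533 and 3565 ± 187 TPM (SD, n = 3 each), a ratio of 0.960. As a share of nuclear transcripts alone the genes took 0.847, 0.820 and 0.894% in the wild-type libraries and 0.714, 0.746 and 0.690% in the knockout libraries, with no overlap. With a fixed nuclear total the ratio of the summed level was 0.840, and after trimmed-mean rescaling it was 0.720, from 4258 ± 238 to 3064 ± 113 rescaled TPM (SD, n = 3 each). In RNA of whole muscle, fewer cells of a type and less RNA per cell cannot be told apart.

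**Figure D2:**
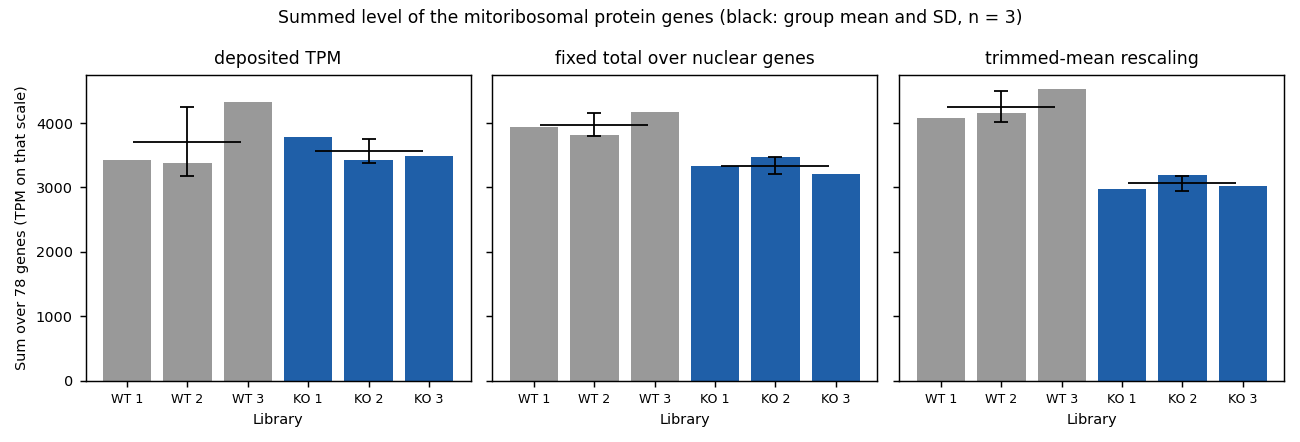
Summed level of the 78 mitoribosomal protein genes in each library (bars, TPM on the named scale) with the mean and SD of each genotype in black, on the deposited, nuclear-only and rescaled scales. The genotypes overlap on the deposited scale, where wild-type library 3 reaches 4327 TPM, and do not overlap on the other scales.

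The gene that was lowest relative to wild type was Mrpl45 (ENSMUSG00000018882, a protein-coding gene at chr11:97315716-97329920 on the plus strand in GRCm38), whose protein sits at the exit of the nascent chain and ties the mitoribosome to the inner membrane. Its wild-type values were 18.7, 18.9 and 23.7 TPM and its knockout values 14.5, 12.9 and 11.1 TPM. All knockout values were below all wild-type values. On the log2(TPM + 1) scale it fell by 0.63 (SE 0.16, adjusted p = 0.00942 with limma), and after rescaling by 1.02 (adjusted p = 0.000454). Without knockout library 3 its adjusted p on the deposited scale was 0.0501.

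Mrpl46 (ENSMUSG00000030612, at chr7:78775236-78783531 on the minus strand in GRCm38) and Mrpl18 (ENSMUSG00000057388, at chr17:12911349-12916345, minus strand) encode proteins of the central protuberance, the crown of the large subunit. Mrpl46 stood at 16.4, 16.8 and 21.8 TPM in wild type and at 13.2, 11.2 and 12.1 TPM in knockout. It fell by 0.55 (SE 0.15, adjusted p = 0.0169 with limma), with no overlap. Its start overlaps Mrps11 on the opposite strand, so reads of that stretch could not be assigned without strand. Its adjusted p was 0.0509 without knockout library 3 and 0.000368 after rescaling. Mrpl18 was expressed several times higher, at 74.6, 81.0 and 98.1 TPM in wild type and 58.4, 69.0 and 56.9 TPM in knockout, again without overlap. It fell by 0.45 (SE 0.16, adjusted p = 0.0402 with limma). That call was the least firm of the lower ones, since it was lost on leaving out any library but knockout library 2 (adjusted p 0.0521 to 0.141).

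The next members in order did not pass on the deposited scale, but their knockout values also lay below all wild-type values. Mrpl28 stood at 45.6, 37.0 and 54.8 TPM in wild type and 33.1, 36.6 and 32.0 TPM in knockout (log2 fold change -0.41, adjusted p = 0.0662 with limma). Without wild-type library 2 its adjusted p was 0.0422. Mrpl16, of the core near the site of peptide bond formation, stood at 30.6, 36.2 and 42.7 TPM and 30.2, 24.9 and 28.0 TPM (-0.38, adjusted p = 0.0781). These pairs of ranges came within 1 TPM of touching. Mrpl12, the stalk protein that recruits translation factors, had wild-type values of 81.1, 70.7 and 88.7 TPM and knockout values of 62.2, 64.1 and 57.8 TPM (-0.37, adjusted p = 0.0588). Mrpl14, at the face turned to the small subunit, stood at 135, 141 and 189 TPM and 115, 109 and 132 TPM (-0.37, adjusted p = 0.0932). After rescaling all 4 were lower, with log2 fold changes of -0.82, -0.79, -0.79 and -0.79 and adjusted p from 0.00124 to 0.00262.

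At the other end, Mrpl17 (ENSMUSG00000030879, at chr7:105803206-105811099, minus strand), a large-subunit protein with a bacterial counterpart, stood at 30.1, 28.4 and 42.1 TPM in wild type and at 62.2, 44.8 and 47.5 TPM in knockout. The groups did not overlap, and it rose by 0.61 (SE 0.19, adjusted p = 0.0232 with limma). The call was lost without wild-type library 1 (0.0759), wild-type library 2 (0.0995) or knockout library 1 (0.0855). After rescaling its log2 fold change was 0.20 (adjusted p = 0.258). Mrpl23 (ENSMUSG00000037772, at chr7:142532686-142540747, plus strand), a protein at the exit of the nascent chain, was one of the lowest members at 3.99, 3.81 and 3.42 TPM in wild type and 5.56, 5.84 and 4.72 TPM in knockout. It rose by 0.42 (SE 0.14, adjusted p = 0.0329), a call that was lost on leaving out any library but knockout library 3 (0.0708 to 0.0799) and after rescaling (0.08, adjusted p = 0.716). Both fold changes were above the median of all genes, 0.33, before rescaling.

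The other 4 members at the top of the order did not pass. Mrps26, a small-subunit protein found only in mitochondria, stood at 14.0, 14.1 and 16.6 TPM in wild type and 23.2, 17.3 and 18.4 TPM in knockout (log2 fold change 0.37, adjusted p = 0.077 with limma, and 0.0497 without knockout library 2). Mrpl52 stood at 91.4, 84.3 and 118 TPM and at 130.2, 113 and 129 TPM (0.35, adjusted p = 0.0986, and 0.0263 without wild-type library 3). Its ranges overlapped through wild-type library 3. Mrpl40 stood at 16.4, 18.7 and 20.2 TPM and at 24.0, 24.5 and 21.6 TPM (0.33, adjusted p = 0.0817), without overlap. Mrpl24, another protein near the exit site, stood at 31.0, 31.6 and 45.3 TPM and at 51.4, 39.0 and 43.8 TPM (0.32, adjusted p = 0.162, and 0.037 without wild-type library 3). Its ranges also overlapped through that library. After rescaling the log2 fold changes of all 4 were below 0, at -0.03, -0.07, -0.07 and -0.09 in this order, and none passed.

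**Figure D3:**
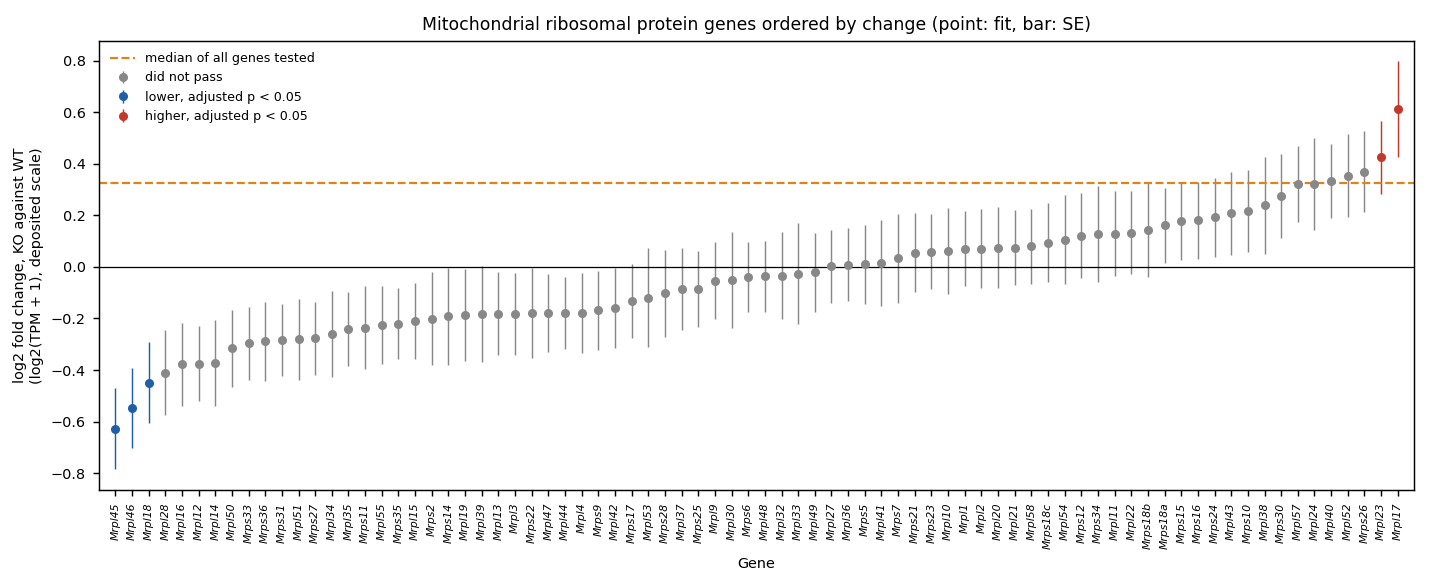
Log2 fold change of each of the 78 genes, knockout against wild type on log2(TPM + 1), in order (point) with its standard error (bar), coloured by its call on the deposited scale, with the median of all genes tested as a dashed line. Mrpl45 at -0.63 and Mrpl17 at 0.61 are the ends of the order, and 73 of the 78 genes lie below the median of all genes at 0.33.

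Of the 6 members with the highest means, Mrpl14 is described above, and its ranges did not overlap. The other 5 overlapped between the genotypes on the deposited scale. Mrpl42, found only in mitochondria and in the large subunit, had the highest mean of all, at 258, 259 and 329 TPM in wild type and 229, 268 and 258 TPM in knockout (log2 fold change -0.16, adjusted p = 0.416 with limma). Mrpl33, a very small large-subunit protein, stood at 161, 189 and 279.5 TPM in wild type and at 211, 190.5 and 199.7 TPM in knockout (-0.03, adjusted p = 0.92). Mrps21, of the small subunit, stood at 168, 185 and 222 TPM and at 202, 188 and 203.5 TPM (0.06, adjusted p = 0.781). In Mrpl42, Mrpl33 and Mrps21 wild-type library 3 was the highest of the 6. Mrpl30 stood at 120.2, 141 and 179.9 TPM in wild type and at 161, 116 and 147 TPM in knockout (-0.05, adjusted p = 0.836). Mrps23 stood at 113, 102 and 119 TPM and at 126, 116 and 106 TPM (0.06, adjusted p = 0.752). After rescaling Mrpl42 (-0.58, adjusted p = 0.0128), Mrpl30 (-0.47, 0.0261), Mrps21 (-0.37, 0.0288) and Mrps23 (-0.36, 0.0235) were lower, and Mrpl33 (-0.45, 0.0555) did not pass. For Mrps21 and Mrps23, as for 33 of the 78 members, the rescaling turned a fold change above 0 into one below 0. It raised every wild-type library and lowered every knockout library, so a turn the other way was not possible for any gene.

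**Figure D4:**
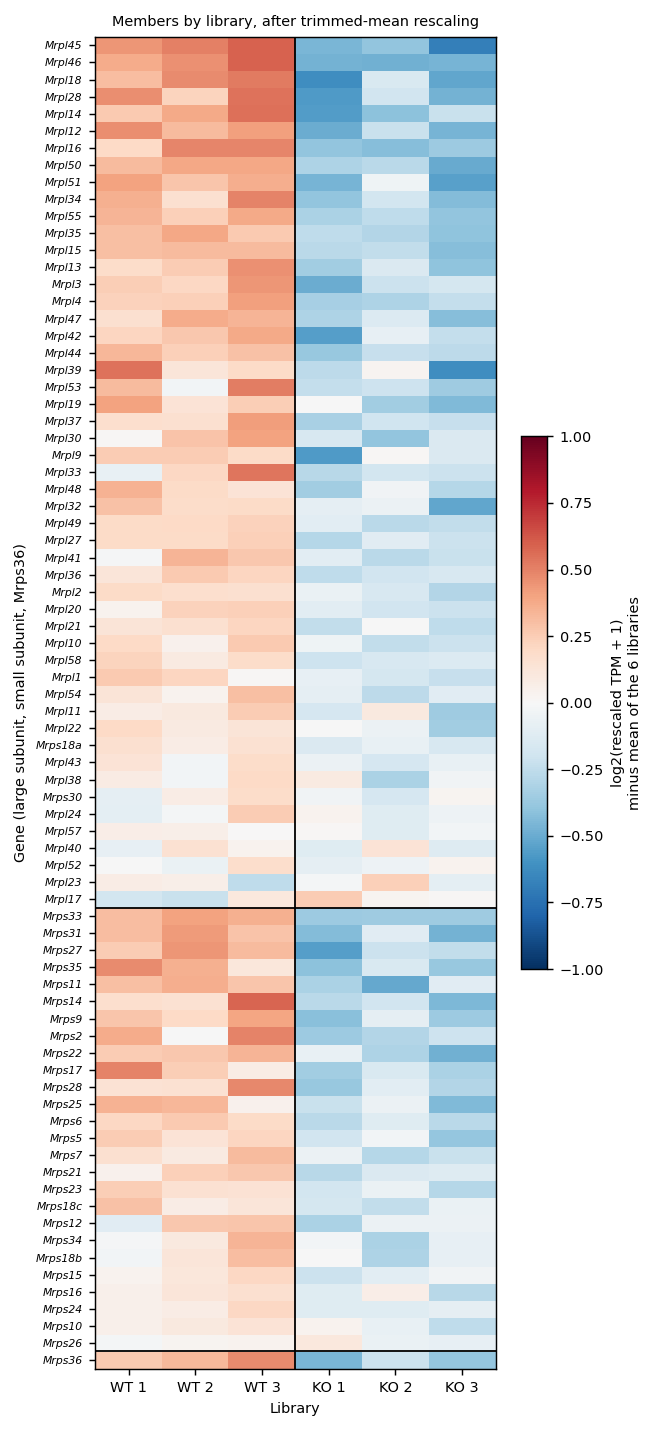
Heat map of the 78 genes (vertical, by subunit, with Mrps36 last) in the 6 libraries (horizontal) after rescaling, as log2(rescaled TPM + 1) minus the gene's mean over the libraries. The knockout values lie below all wild-type values for 65 genes, and Mrpl17 and Mrpl23 are among the 13 that overlap.

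Vertebrates carry 3 paralogs of the bacterial protein S18, each in a place of its own in the mitoribosome. Mrps18c holds the place of the bacterial protein in the small subunit and stood at 61.3, 50.7 and 62.0 TPM in wild type and at 66.8, 53.8 and 65.3 TPM in knockout. Mrps18b, at another place in the small subunit, stood at 29.6, 31.8 and 42.7 TPM and at 45.3, 30.9 and 39.0 TPM. Mrps18a, in the large subunit, stood at 75.6, 68.9 and 85.8 TPM and at 92.3, 82.1 and 82.9 TPM. All 3 overlapped between genotypes, with log2 fold changes of 0.09, 0.14 and 0.16 and adjusted p of 0.63, 0.536 and 0.375 with limma. After rescaling the log2 fold changes were -0.32, -0.27 and -0.26, of which that of Mrps18c passed (adjusted p = 0.0403) and those of Mrps18b (0.14) and Mrps18a (0.0521) did not. Mrps36, the member outside the ribosome, stood at 95.4, 96.0 and 125 TPM in wild type and at 87.0, 87.2 and 82.7 TPM in knockout (-0.29, adjusted p = 0.146, and -0.71, adjusted p = 0.00195, after rescaling).

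The subunits gave similar counts. Among the 51 large-subunit genes there were 2 higher and 3 lower calls on the deposited scale (median -0.04), and 37 were lower after rescaling (72.5%, median -0.45). Of the 26 small-subunit genes, none passed in either direction on the deposited scale (median -0.01), and 18 were lower after rescaling (69.2%, median -0.42). The 46 members with a bacterial counterpart had 35 lower after rescaling, and the 31 found only in mitochondria had 20. By place in the large subunit, 6 of 9 genes of the central protuberance, 3 of 6 at the exit site and 3 of 5 of the stalk and its base were lower after rescaling. Differences between these groups were not tested.

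The counts after rescaling were equal by length and by level. Their coding length had a median of 582 nucleotides (261 to 1326), against 1356 for the tested protein-coding genes, and of the 39 members at or under the median length and the 39 above it 28 each were lower after rescaling. The same 28 and 28 were found on dividing the members at their median TPM, where quantile normalization gave 20 lower at or under the median and 15 above it.

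The 78 genes are spread over 17 chromosomes, and many share a start region with a neighbour on the opposite strand. By the GENCODE M21 annotation of GRCm38, 19 of them (24.4%) begin within 1000 bases of a protein-coding gene that runs the other way, counting pairs whose gene bodies overlap by no more than 100 bases, against 1243 of 11033 tested protein-coding genes (11.3%). Such pairs include Mrps12 with Sars2, which encodes the mitochondrial seryl-tRNA synthetase, Mrpl36 with Ndufs6, which encodes a complex I subunit, and Mrpl49 with Fau, which encodes a cytosolic ribosomal protein. Members with such a neighbour had 13 of 19 lower after rescaling, and those without had 43 of 59. Mrpl46 and Mrps11 also start head to head, but their gene bodies overlap by more than that and they were not counted. The sources used here do not say whether counting used strand, so where gene ends overlap their reads could not be separated.

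Nuclear genes of mitochondrial function are known for promoters without a TATA box that bind NRF1, the ETS factor GABP (also called NRF2) and YY1. RefSeq start regions on GRCm38.p6, from 250 bases before to 50 after a start, were at hand for 69 of the members, in 75 windows. Searched on both strands, the NRF1 core (GCGC, any base, then TGCGC) was in 13 windows (17.3%, against 10.3% of the windows of tested genes and 4.60% of all windows), the ETS core CCGGAAG in 26 (34.7%, against 17.7% and 8.86%) and the YY1 core AAGATGGCG in 8 (10.7%, against 3.08% and 1.40%). At least 1 of the 3 was in 41 windows (54.7%, against 27.8% and 13.6%). The TATA letters TATAAA were in 5 windows (6.67%, against 7.33% and 13.6%), and the letters TCAAGGTCA, bound by oestrogen-related receptors, were in none (0.247% and 0.423%). No match of the NRF1, ETS or YY1 core overlapped a match of another of these 3 cores. A match is a description of the letters and not a site shown to be bound.

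The stretches upstream of 5 of these genes are shown because they carry these letters in genes from different places in the order of fold changes: Mrpl45 at its lower end and Mrpl12 near it, Mrpl17 at its upper end, Mrpl52 near it and Mrps18a between them. Those of Mrpl45 and Mrpl52 end at the base before the RefSeq start. Bases of any annotated exon are left out. The stretches of Mrpl12, Mrpl17 and Mrps18a therefore end short of the start, after 226, 238 and 232 of the 250 bases before it. Capitals mark NRF1 letters in Mrpl12 and Mrpl45, NRF1 and ETS letters in Mrpl17 and ETS letters in Mrpl52 and Mrps18a. The NRF1 letters of Mrpl45 and Mrpl17 and the ETS letters of Mrpl52 match on the other strand and so read as the reverse complement. In GRCm38.p6 they lie at chr11:97315466-97315715 (plus strand, Mrpl45), chr11:120484387-120484612 (plus, Mrpl12), chr7:105811100-105811337 (minus, Mrpl17), chr14:54426659-54426908 (plus, Mrpl52) and chr17:46110754-46110985 (plus, Mrps18a).
Mrpl45: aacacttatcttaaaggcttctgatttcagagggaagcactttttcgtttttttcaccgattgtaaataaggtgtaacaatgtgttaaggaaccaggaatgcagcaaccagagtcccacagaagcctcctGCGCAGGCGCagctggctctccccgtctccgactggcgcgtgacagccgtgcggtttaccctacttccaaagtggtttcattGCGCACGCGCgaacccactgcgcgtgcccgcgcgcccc
Mrpl12: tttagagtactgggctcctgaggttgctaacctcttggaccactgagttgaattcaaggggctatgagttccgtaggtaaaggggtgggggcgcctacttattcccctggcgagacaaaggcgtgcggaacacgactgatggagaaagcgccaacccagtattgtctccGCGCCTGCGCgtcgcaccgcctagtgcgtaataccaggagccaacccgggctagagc
Mrpl17: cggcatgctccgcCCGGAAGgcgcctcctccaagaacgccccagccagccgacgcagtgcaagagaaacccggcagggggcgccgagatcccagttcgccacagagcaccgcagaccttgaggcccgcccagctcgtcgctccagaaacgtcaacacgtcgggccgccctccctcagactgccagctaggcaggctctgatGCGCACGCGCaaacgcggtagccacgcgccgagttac
Mrpl52: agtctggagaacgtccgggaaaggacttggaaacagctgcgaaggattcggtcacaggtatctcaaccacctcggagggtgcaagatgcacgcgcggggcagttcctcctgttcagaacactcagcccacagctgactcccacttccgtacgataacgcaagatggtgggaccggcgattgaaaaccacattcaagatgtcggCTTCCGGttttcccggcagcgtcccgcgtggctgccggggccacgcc
Mrps18a: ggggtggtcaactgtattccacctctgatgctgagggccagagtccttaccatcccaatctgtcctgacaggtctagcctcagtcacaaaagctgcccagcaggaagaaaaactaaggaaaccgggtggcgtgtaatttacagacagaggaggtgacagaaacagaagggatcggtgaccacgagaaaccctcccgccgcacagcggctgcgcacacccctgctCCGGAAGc

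Mrpl45 holds the NRF1 letters at 2 places, and Mrpl17, whose level moved the other way, holds them once. Among the members with a window, 10 of 13 with the NRF1 letters were lower after rescaling and 40 of 56 without. For the ETS letters the counts were 15 of 26 with and 35 of 43 without, and for the YY1 letters 6 of 8 with and 44 of 61 without. These differences were not tested.

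The other genes of mitochondrial translation were taken from lists by role, and differences between lists were not tested. The 5 further components of the mitoribosome whose symbols lack the prefixes had no call on the deposited scale (median -0.05), and 3 of them, Chchd1, Ptcd3 and Gadd45gip1, were lower after rescaling. Chchd1, the highest of them, averaged 116 ± 20.5 TPM in wild type, against 109 ± 9.26 TPM in knockout (SD, n = 3 each). Dap3 and Aurkaip1 did not pass.

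Of the 18 translation factors and related genes, Pdf and Mtfmt were higher and Taco1 and Lrpprc lower (median -0.15). That was 11.1% each way, against 36.3% higher and 2.92% lower among all genes tested. After rescaling 11 were lower (61.1%, against 15.1%). Taco1, an activator of the translation of cytochrome c oxidase subunit I, stood at 25.1, 21.9 and 29.4 TPM in wild type and at 17.8, 15.8 and 14.5 TPM in knockout. It fell by 0.63 (SE 0.16, adjusted p = 0.00885 with limma) and passed under each alternative run (0.000327 to 0.044). Pdf, which removes the formyl group of the first methionine, rose from 13.0 ± 1.46 to 19.6 ± 3.60 TPM (0.55, adjusted p = 0.0209), a call lost after rescaling (0.304) and without wild-type library 1 (0.0642), wild-type library 2 (0.0857) or knockout library 1 (0.0727). Among the 22 mitochondrial aminoacyl-tRNA synthetases and related enzymes, Kars and Hars2 were higher and Qrsl1 lower (median 0.07). These were 9.09% and 4.55%, against 36.3% and 2.92% of all genes tested. After rescaling 8 were lower (36.4%, against 15.1%). Qrsl1, a subunit of the enzyme that makes glutaminyl-tRNA in mitochondria, stood at 13.5, 11.9 and 14.8 TPM in wild type and 9.21, 8.70 and 6.37 TPM in knockout. It fell by 0.67 (adjusted p = 0.0081) and passed under each alternative run (0.00101 to 0.0446). Kars, which also encodes the cytosolic enzyme, rose from 43.0 ± 3.31 to 72.9 ± 16.5 TPM (0.73, adjusted p = 0.00733, and 0.0717 after rescaling).

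Of 26 assembly factors of the mitoribosome, Mettl17, Gtpbp6 and Mpv17l2 were higher (11.5%, against 36.3% of all genes tested) and none was lower (median 0.12). After rescaling 7 were lower (26.9%, against 15.1% of all genes tested). Mettl17, which binds the small subunit during assembly, had a mean of 4.79 ± 1.36 TPM in wild type, against 7.21 ± 0.752 TPM in knockout (SD, n = 3 each). Its call (0.52, adjusted p = 0.035 with limma) was lost without wild-type library 1 (0.112), wild-type library 2 (0.14), knockout library 1 (0.105) or knockout library 3 (0.076) and after rescaling (0.377). Gtpbp6, a GTPase that dissociates the mitoribosome, behaved alike (0.58, adjusted p = 0.0355), with the call lost without the same libraries (0.0616 to 0.155) and after rescaling (0.377). Of 21 tested genes of mitochondrial DNA expression, Elac2 was higher and Fastkd1 lower (4.76% each, against 36.3% and 2.92% of all genes, median -0.04). After rescaling 13 were lower (61.9%, against 15.1%). The Elac2 call was also lost after rescaling (adjusted p = 0.546), with quantile normalization (0.556), on the nuclear-only scale (0.0827) and with median centring (0.63), whereas Fastkd1 passed on each of these scales. On the deposited scale neither call held when wild-type library 1, wild-type library 2, knockout library 1 or knockout library 3 was left out, nor did that of Fastkd1 without wild-type library 3. The adjusted p of Elac2, which trims mitochondrial tRNAs, was then 0.0931 to 0.152, and that of Fastkd1, which acts on mitochondrial RNA, was 0.0607 to 0.152.

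Of 13 nuclear regulators of mitochondrial genes, Myc, Pprc1 and Tfeb were higher and Esrra lower, with a median of 0.05. That was 23.1% and 7.69%, against 36.3% and 2.92% of all genes tested. After rescaling 1 was higher, Myc, and 5 were lower (38.5%, median -0.27), against 13.6% and 15.1% of all genes tested. Pprc1 and Tfeb no longer passed. Esrra, the oestrogen-related receptor alpha, stood at 71.1, 67.6 and 81.7 TPM in wild type and at 54.1, 48.5 and 46.9 TPM in knockout. It fell by 0.55 (SE 0.14, adjusted p = 0.0121 with limma, and 0.0612 without knockout library 3). Myc, a transcription factor of growth and ribosome production, rose from 1.29 ± 0.238 to 3.49 ± 0.105 TPM (0.98, adjusted p = 0.000267) and passed on every scale run. The genes of the factors whose letters were searched did not pass on the deposited scale, with log2 fold changes of 0.33 for Nrf1, -0.04 for Gabpa and 0.28 for Yy1.

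**Figure D5:**
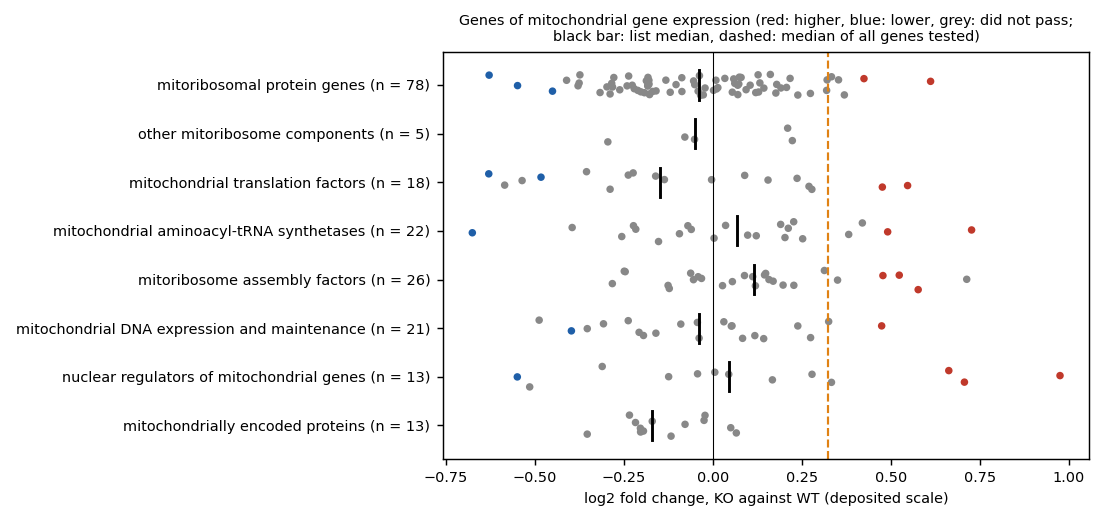
Log2 fold changes on the deposited scale (horizontal) of the tested genes of 8 lists of mitochondrial gene expression (1 point a gene, red higher, blue lower, grey not passing), with the list median as a black bar and the median of all genes tested as a dashed line. The list medians run from -0.17 for the proteins of the mitochondrial genome to 0.12 for the assembly factors, all below the 0.33 of all genes.

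The proteins of the cytosolic ribosome, which makes the mitoribosomal proteins themselves, showed another pattern. Of 82 tested cytosolic ribosomal protein genes 45 were higher and none was lower (54.9%, against 36.3% of all genes), and their median log2 fold change was 0.50. After rescaling 3 were higher and 2 lower (median 0.08), against 13.6% and 15.1% of all genes tested. Their summed level in knockout was 1.41 times that of wild type, and 1.05 times after rescaling, where the mitoribosomal genes stood at 0.960 and 0.720. Many genes of this family have near-identical copies, and how their reads were divided is not given in the sources used here. The nuclear genes of complex I, taken by symbol, lay on the other side of the members. Of these, 1 of 38 was higher and 5 lower (2.63% and 13.2%, against 36.3% and 2.92% of all genes, median -0.29). After rescaling 36 were lower (94.7%, median -0.71), against 15.1% of all genes and 24.4% of those of at least 10 TPM. The symbols taken for complex I begin with Nduf, then a, b, c, s or v and a digit. That list may thus hold genes outside the complex and miss others. Of the 15 tested nuclear genes of cytochrome c oxidase, 1 was higher and 2 lower (6.67% and 13.3%, median -0.17). After rescaling 10 of the 14 tested were lower (71.4%, against 15.1% of all genes tested, median -0.59). The 13 proteins of the mitochondrial genome had no call (median -0.17). After rescaling 1 was lower, mt-Nd1 (7.69%, against 15.1% of all genes tested, median -0.59). Differences between these lists were not tested.

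Markers of other cell types moved with the genotype. All 9 macrophage markers were higher in knockout on both scales, with a summed level of 37.0 to 44.3 TPM in wild type and 188 to 237 TPM in knockout, and all 7 markers of fibroblasts and fibro-adipogenic progenitors were higher, at 275 to 303 and 843 to 875 TPM. Of the 6 endothelial markers 5 were higher and 1, Kdr, was lower, with a sum of 78.2 to 85.6 and 153 to 180.3 TPM. After rescaling 4 of the endothelial markers were higher and 1 was lower. None of these markers was at 0 in any library. The 10 muscle fibre markers summed to 38885 to 42899.9 TPM in wild type and 42727 to 51545 TPM in knockout, with Des and Myh4 higher and none lower on the deposited scale. After rescaling they summed to 44892 to 47896 and 35377 to 44758 rescaled TPM, without overlap (ratio 0.860), with Des and Myh4 higher and Mb and Tnnt1 lower. Myh7, the slow myosin typical of soleus, stood at 1702 to 2703 TPM in wild type and 2196 to 3291 TPM in knockout and did not pass. Myh4, the fast myosin of glycolytic fibres, had 6.43, 193.5 and 4.21 TPM in wild type and 238, 580.1 and 346 TPM in knockout, so that wild-type library 2 stood apart from its group. With wild-type library 2 left out, 42 of the 78 genes were lower after rescaling, and the member median was 0.37 below that of all genes on the deposited scale. Of the other lists, Myod1 was the single call among the 2 tested satellite cell markers (higher). None of the 3 tested adipocyte and 4 Schwann cell markers passed on the deposited scale, and 2 of the Schwann cell markers were lower after rescaling. The part of all these cell type markers in the position of the mitoribosomal protein genes was not tested.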

How the data were processed

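Poly(A) RNA libraries of wild-type and knockout muscle were grouped by the labels. The values deposited by the authors were taken as TPM from the values alone, since no header or label names the unit: they are not whole numbers, and each library adds up to between 843194 and 872482. Of tools and builds, the submitters' processing notes give kallisto 0.43.0, STAR 2.5.3a, mm10 and GRCm38 but not their roles. TPM keeps no read depth, so no counting interval is given, and as a share it moves when a few abundant transcripts move. Genes missing from a file were set to 0. Soleus and quadriceps samples of the same genotype and number held equal values and were counted once.

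The test was limma 3.58.1 (R 4.3.3, trend on intensity) on log2(TPM + 1), for genes reaching 1 TPM in 3 or more libraries, and p-values were adjusted over all of them by Benjamini-Hochberg, with a threshold of 0.05. Fold changes on that scale understate those of low genes. Rescaling used a trimmed mean of log ratios (30% of ratios and 5% of levels trimmed), and percentages called are read from the same fits. Alternatives were quantile normalization, a nuclear-only total, pseudocounts of 0.1 and 5, no filter, a filter of 10 TPM, no trend, a size threshold, the replicate number as a block and each library left out. Median centring, rescaling combined with omissions or the block, and leaving out wild-type library 2 with knockout library 1 were chosen after seeing the data. The fit was tested on simulated data with 200 of 11056 genes changed, all drawn from those averaging above 10 TPM on the log scale. It recovered 74% of those with a log2 change of 1 and 99% of those with 2, and 3.35% of its calls were unchanged genes. Recovery among lower genes was not measured. All members changed by less than 1 on the deposited scale, so one that did not pass may still differ. The simulation held no shift shared by most genes, unlike the data.

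The members and gene lists were chosen with earlier results of these data known. Named members were the 6 with the highest mean, the 6 highest and 6 lowest by log2 fold change, the Mrps18 paralogs, Mrpl12 and Mrps36; of other lists the 2 with the smallest adjusted p, or the highest where none passed, were to be described, and genes in counts of 5 or fewer, Nrf1, Gabpa, Yy1 and the printed promoters were chosen after their values were seen. Positions come from GENCODE M21 and sequences from RefSeq.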

Additional observations from a re-analysis of the deposited data

How the results depend on the processing

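Against 2 members higher and 3 lower on the deposited scale, trimmed-mean rescaling gave 0 and 56, quantile normalization 0 and 35, the nuclear-only scale 1 and 25, and median centring 0 and 55. The number higher was 0 without a filter, 1 with a filter of 10 TPM, 1 where a log2 change of 0.5 in size was also asked for, and 0 when wild-type library 2 and knockout library 1 were both left out. Leaving out 1 library gave 0 to 3 higher and 0 to 3 lower, with none lower without knockout library 3. The count lower after rescaling was 35 to 49 with 1 library left out and 30 with wild-type library 2 and knockout library 1 both omitted. The median log2 fold change of the members, -0.04, became -0.45 with rescaling, -0.33 with quantile normalization, -0.23 on the nuclear-only scale and -0.44 with median centring. Its distance to all genes, -0.36, was -0.24 with a pseudocount of 5, -0.22 without a filter and -0.42 to -0.32 with 1 library left out. The ratio of summed levels was 0.960, or 0.720 rescaled and 0.840 nuclear-only. Rescaling and centring each turned 33 members from above to below 0. Both raised every wild-type and lowered every knockout library, so a turn the other way was not possible. Among named members, those that passed once turned were Mrps21 (-0.37 rescaled, -0.34 centred), Mrps23 (-0.36 and -0.34) and Mrps18c (-0.32 rescaled). The 4339 genes passing became 2823 with quantile normalization, 1839 with the 10 TPM filter (4887 genes tested), 1886 with those libraries omitted, and 2648 to 4458 with 1 library left out. The cause of these shifts was not tested. Same-numbered wild-type and knockout libraries did not deviate together (correlations of 0.03, -0.01 and 0.04, against -0.13 to 0.10 for the other pairs). This gave no sign that the numbers pair them, but 3 libraries a genotype are too few to exclude it. With the replicate block 4373 genes passed, 2 members were higher and 2 lower, and 48 were lower after rescaling. Sequencing depth is unknown, and what it limits could not be given.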
